A study of Mus musculus with 4 samples.

Results

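Ucn3, Crhr2, Sstr1, Sstr2, Sstr3 and Ghsr are genes of a local signalling circuit of the pancreatic islet. They were chosen by symbol, and each of the 6 was found once among the 32285 genes of the count matrices. Their levels were not used to define the cell classes. In islets, beta cells secrete urocortin 3 together with insulin, and urocortin 3 acts on its receptor CRHR2 on delta cells to promote the release of somatostatin. Somatostatin in turn acts through inhibitory G-protein-coupled receptors on neighbouring hormone cells, and ghrelin acts on delta cells through its receptor GHSR. Ucn3 is also widely used as a marker of mature mouse beta cells. The comparisons asked which hormone cells carried the message for the signal, which carried the receptors, and how these levels differed between the libraries.

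Islets came from male mice with 2 Pax4 genotypes on a C57BL6/N background. WT mice carried the wildtype gene. HH mice were homozygous for a knock-in that replaces an arginine by a histidine in the endogenous Pax4 gene in all cells of the animal. Mice fed standard chow (SCD) were taken at 12 weeks, and mice fed a high-fat diet (HFD) for 4 weeks were taken at 16 weeks. Each of the 4 groups had 1 library from the pooled islets of several mice, sequenced with a droplet-based single-cell method that counts unique molecular identifiers (UMIs) near the 3′ end of each message. With 1 library per group there was no replicate check and no test. Genotype and library cannot be told apart, nor can diet and age. All intervals are 95% intervals and cover counting error only.

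The libraries held 4665 to 7123 barcodes, of which 38.3% to 67.8% passed the cell filters, the lowest share being in WT HFD. After removal of the barcodes with the highest doublet scores, 12168 cells were used, and 11035 of these fell in classes named after their hormone markers: 7765 beta-like, 1135 delta-like, 1661 alpha-like and 474 PP-like cells. Cells with the same barcode in 2 libraries numbered 0 to 4 per pair. Sst made up 178577 to 180971 CPM (UMIs scaled to a total of 1000000) of the delta-like cells, Gcg 281359 to 340853 CPM of the alpha-like cells and Ppy 362103 to 395379 CPM of the PP-like cells. Pax4 itself had 0 UMIs in every library, which left no check of the genotype labels. Delta-like cells were fewest in WT HFD, with 160 cells, against 332 in WT SCD, 348 in HH SCD and 295 in HH HFD. Their median depth was lowest in HH HFD, at 7552 UMIs per cell, against 9242 to 12442 in the others.

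Ucn3, the gene for the signal peptide (ENSMUSG00000044988, chromosome 13, 3940688 to 3945349, minus strand, GRCm38), was a beta-cell message. Beta-like cells held 99.6% of its UMIs in the 4 hormone classes. Its level there was 264.5 CPM in WT and 269.6 in HH on SCD, and 282.3 in WT and 210.8 in HH on HFD. The first 3 libraries lay close together and HH HFD lay below all of them. The other hormone classes ranged from 2.66 to 11.3 CPM, far below the lowest beta-like value, and among themselves their order could not be resolved in most libraries.

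The bases just upstream of the annotated start are shown because Ucn3 is the member whose beta-like level stood apart in HH HFD, and Pax4 is a homeodomain protein. The sequence is from RefSeq (GRCm38.p6, chr13:3945350-3945599, minus strand) and is written 5′ to 3′, with capitals marking the letters TAAT, the core of many homeodomain motifs, read on either strand.
Ucn3 upstream: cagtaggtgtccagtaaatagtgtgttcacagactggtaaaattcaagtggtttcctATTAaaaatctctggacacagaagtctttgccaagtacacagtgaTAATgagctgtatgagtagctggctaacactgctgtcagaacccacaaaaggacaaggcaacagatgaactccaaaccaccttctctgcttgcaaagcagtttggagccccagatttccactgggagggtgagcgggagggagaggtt
These 250 bases held 2 matches, and 30.8% of the 32851 windows of this length in the table held as many. Ghsr had 1 match, where 54.9% of the windows had 1 or more, and the windows of Crhr2, Sstr2 and Sstr3 had 0. The table gave a window for 5 of the members, and Sstr1 was not looked at. A match in 4 letters is a description and no binding site.

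**Figure D1:**
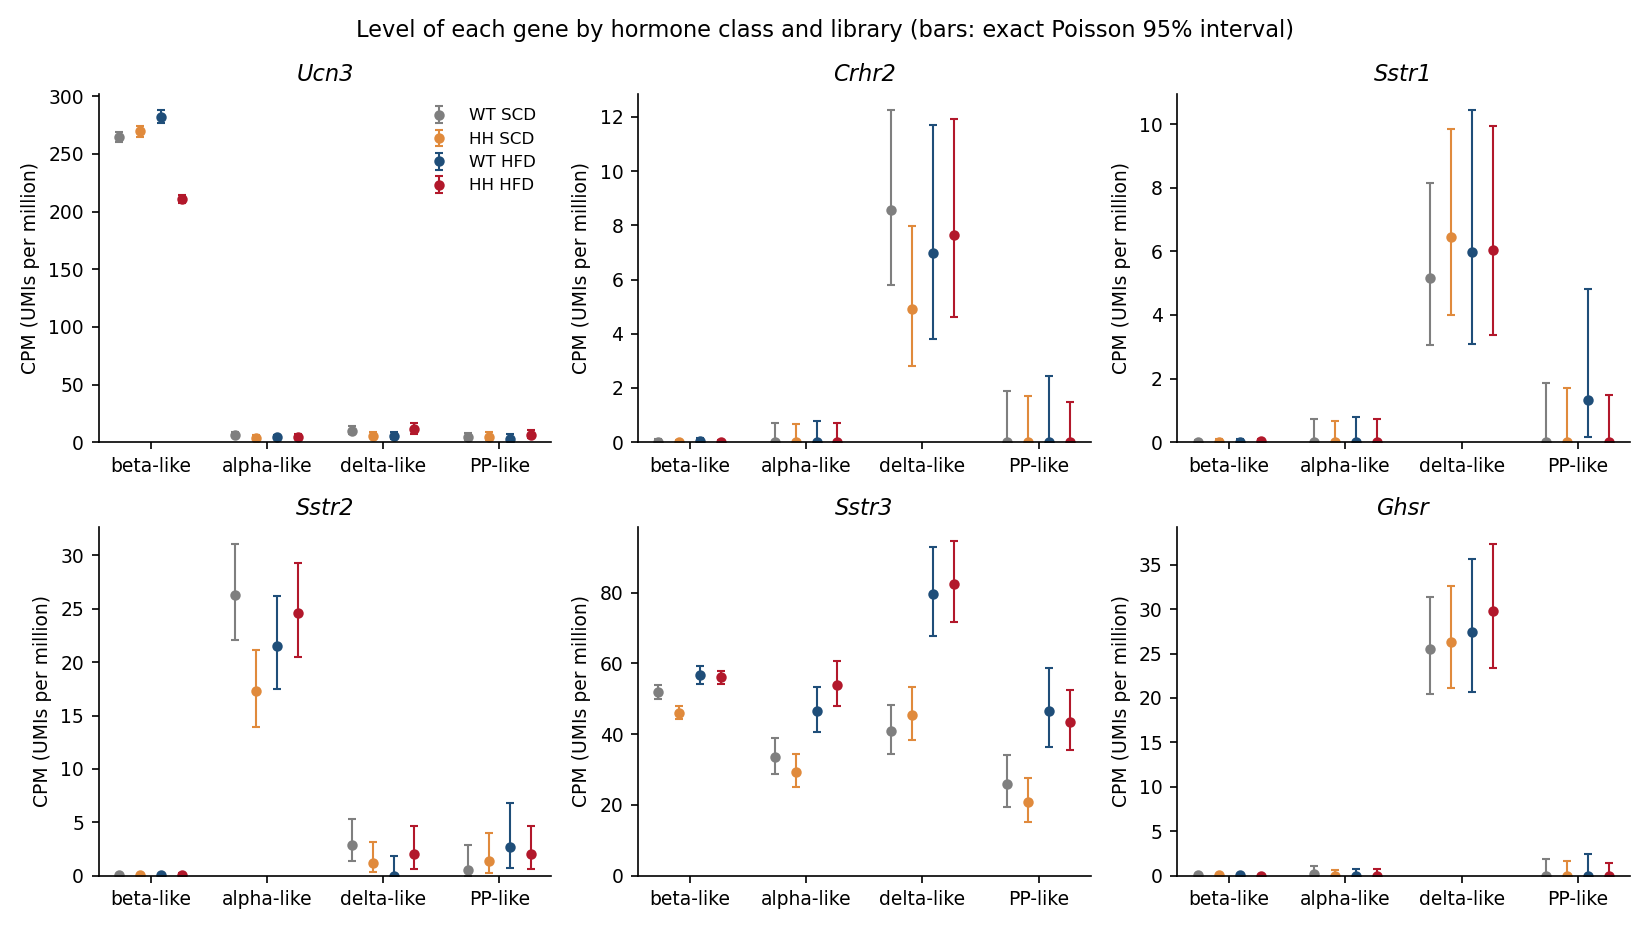
Level of the 6 genes in CPM on linear axes from 0 for the 4 hormone classes, with 1 point per library and exact Poisson 95% intervals. Ucn3 stands in beta-like cells, Crhr2, Sstr1 and Ghsr in delta-like cells and Sstr2 in alpha-like cells, while Sstr3 is present in all 4 classes and higher in the HFD libraries.

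Among beta-like cells, the lower Ucn3 level of HH mice appeared in the HFD libraries. On SCD the log2 ratio of HH over WT was 0.03 (interval -0.01 to 0.06). On HFD it was -0.42 (-0.46 to -0.38), a level 0.747 times that of WT HFD. Neither passed the fold used to call a difference, a log2 ratio of 0.5 in either direction with at least 30 UMIs over the pair, which 6.31% of 13064 genes passed on SCD and 13.1% of 13063 genes on HFD. The median of all genes in beta-like cells was itself -0.15 on HFD. Under median-of-ratios scaling, the ratio for Ucn3 on HFD was -0.27.

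Read the other way, HFD over SCD, the genotypes moved apart. In WT the log2 ratio was 0.09 (0.06 to 0.13) and in HH it was -0.36 (-0.39 to -0.32). Over all beta-like cells the ratios thus had opposite signs, each with an interval clear of 0. The difference between them was not tested, and with a looser filter on cells the WT ratio was 0.01. Again neither ratio passed the fold, which 15.3% of genes passed in WT and 20.9% in HH. Different clusters held most beta-like cells on the 2 diets, clusters 0 and 1 on SCD and clusters 2 and 3 on HFD. Within clusters 2 and 12, which had at least 50 cells in all 4 libraries, the HH ratio was not below 0 beyond its interval. In cluster 2 it was -0.08 in HH (-0.20 to 0.05) and 0.28 in WT (0.13 to 0.43), and in cluster 12 it was 0.29 in HH (0.08 to 0.51) and 0.72 in WT (0.50 to 0.95).

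The share of cells with a Ucn3 UMI was also lowest in HH HFD. With every beta-like cell reduced to 3000 UMIs, Ucn3 was found in 51.2% of cells in WT (48.99% to 53.4%) and 52.4% in HH (50.2% to 54.7%) on SCD, and 51.8% in WT (48.8% to 54.8%) and 44.4% in HH on HFD (42.5% to 46.3%). Endothelial-like cells, which should lack Ucn3, gave 2.27% to 4.43% at the same depth. Their median depth was 5790 to 7078 UMIs, against 24172 to 29630 in beta-like cells, lowest in HH HFD. Without this reduction the beta-like shares were 94.8% to 96.7%. At 10000 UMIs per cell, Ucn3 averaged 2.67, 2.69, 2.86 and 2.14 UMIs in WT SCD, HH SCD, WT HFD and HH HFD, with the median at 2 in each.

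Within HH HFD the level depended on the cluster. Cluster 2, led by Gm42941, Nupr1 and Zdhhc22, held most WT HFD beta-like cells and was present in both HFD libraries. Its Ucn3 level was 293 CPM in WT HFD (869 cells) and 256 CPM in HH HFD (1198 cells), a log2 ratio of -0.19 (-0.24 to -0.15). Cluster 3, led by Dapl1, Aldh1a3 and Serpina7, drew 1250 of its 1281 cells from HH HFD, and its level there was 185 CPM (180 to 189). With cluster 3 left out, the HH over WT ratio on HFD was -0.25. So the HH HFD level was lower in cluster 2, which both genotypes shared, and the difference was smaller there. The median of all genes over all beta-like cells was -0.15 for this comparison, and that within cluster 2 is not given here. In cluster 12, also shared, the Ucn3 ratio was -0.15 (-0.35 to 0.04), an interval that included 0.

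Cells without a Mafa UMI that had a Gc, Aldh1a3 or Serpina7 UMI, at 3000 UMIs per cell, numbered 626 of the beta-like cells in HH HFD and 74 to 88 in the other libraries. Ucn3 stood at 182 CPM (176 to 189) in these HH HFD cells and at 220 CPM (216 to 224) in the remaining 2123. In the other libraries, the cells so chosen had 245 to 265 CPM and the rest 265 to 284 CPM.

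Cluster 12, led by Cpb2, Opcml and Car15, had low Ucn3 in every library. Its level was 101 CPM in WT and 122 in HH on SCD, and 167 in WT and 149.9 in HH on HFD. Here the HFD libraries were the higher ones, and the HH over WT interval on HFD included 0 (-0.35 to 0.04). Cycling cells of cluster 13, led by Cenpf, Ube2c and Pbk, with Mki67 also among the top genes, had 152 CPM in HH HFD. This was the only library with at least 50 such cells.

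**Figure D2:**
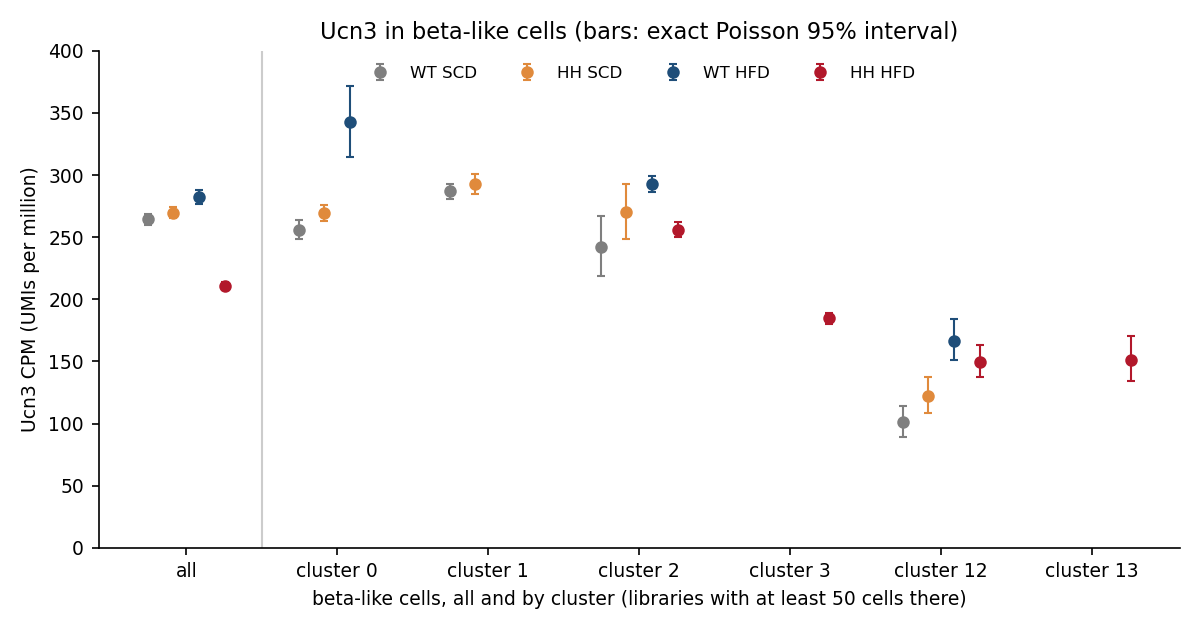
Ucn3 CPM in all beta-like cells and in each beta-like cluster, with 1 point for each library that had at least 50 cells there and exact Poisson 95% intervals. HH HFD is at 210.8 CPM in all cells, at 256 CPM in cluster 2 and at 185 CPM in cluster 3, and cluster 12 lies between 101 and 167 CPM in all 4 libraries.

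In the other hormone classes and in endothelial-like cells, Ucn3 mostly stood near the amount expected if their insulin UMIs were free beta-cell RNA. Insulin UMIs were used as a tracer, assuming that all of them came from this source with its genes in 1 ratio. The assumption was not tested. Subtracting an estimated free-RNA profile left 1.22 to 4.22 CPM of Ucn3 in alpha-like cells, from 3.85 to 6.62 before. In delta-like cells it left 0 to 3.92 CPM, from 4.98 to 11.3 before. In alpha-like cells 34, 21, 19 and 25 Ucn3 UMIs were observed in WT SCD, HH SCD, WT HFD and HH HFD, against 34.0, 36.4, 19.8 and 20.2 expected. In delta-like cells 35, 18, 10 and 28 were observed against 32.2, 25.7, 11.4 and 20.3. Over alpha-like, delta-like, PP-like and endothelial-like cells the observed count was 0.566 to 1.93 times the expected one. In 14 of the 16 cases the interval held 1, the exceptions being HH SCD alpha-like cells (0.576, 0.357 to 0.881) and HH HFD PP-like cells (1.93, 1.1 to 3.13). Among the remaining cell classes, the interval excluded 1 in the B cell-like cells of HH SCD, with 89 UMIs against 46.5 expected (1.92, 1.54 to 2.36).

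The Ucn3 ratios between libraries in those classes rest on such counts. Of them 3 passed the fold with an interval clear of 0, all in delta-like cells: -0.86 for HH over WT on SCD, 1.18 for HH over WT on HFD and 1.03 for HFD over SCD in HH. Insulin UMIs in the same delta-like cells were 18924 CPM in WT and 16322 in HH on SCD, and 11125 in WT and 21228 in HH on HFD, and were thus also lowest in WT HFD and highest in HH HFD. In HH HFD, 3 of the 295 delta-like cells held 11 of the 28 Ucn3 UMIs, and 1 cell held 6. Gcg, the glucagon gene of alpha cells, was also higher in HH HFD delta-like cells, at 4898 CPM against 610, 624 and 613 CPM in WT SCD, HH SCD and WT HFD. The part of these in the Ucn3 ratios was not tested.

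**Figure D3:**
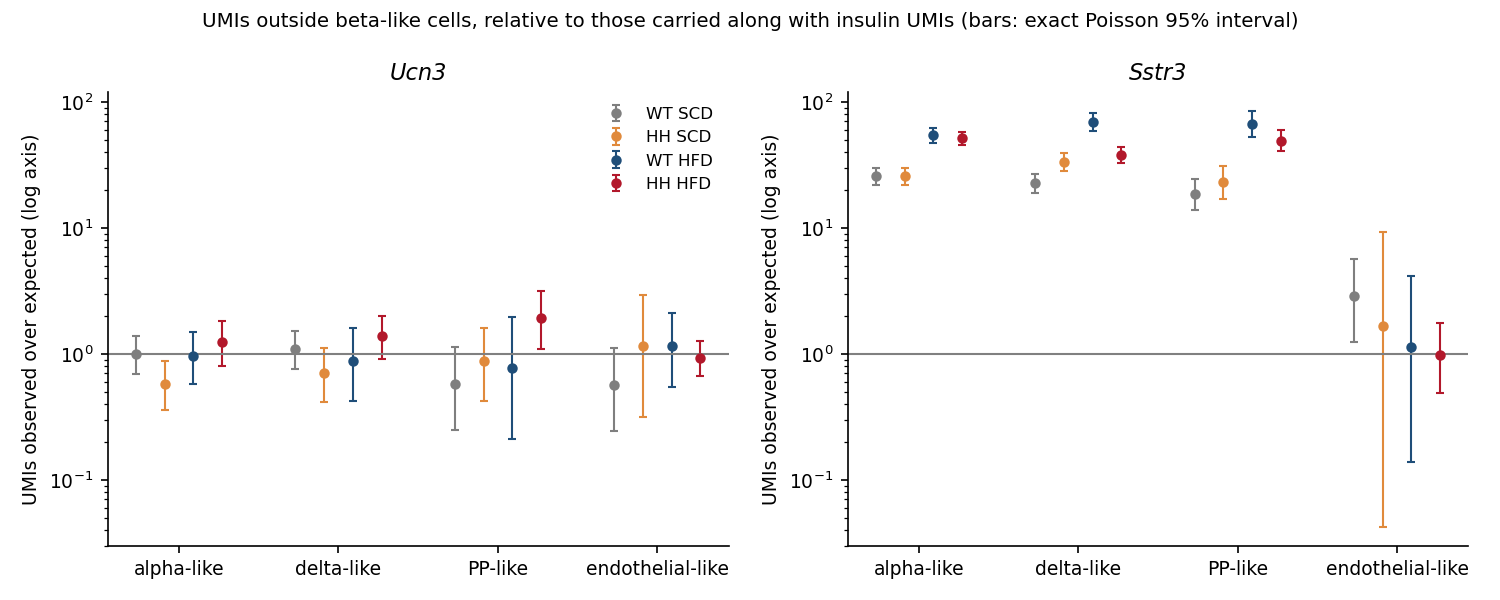
UMIs of Ucn3 and Sstr3 outside beta-like cells, divided by the number expected if they came along with insulin UMIs in the ratio of beta-like cells, on a log axis with exact Poisson 95% intervals. Ucn3 lies between 0.566 and 1.93, near the line at 1, whereas Sstr3 lies between 18.7 and 69.7 in the other hormone classes and near 1 in the endothelial-like cells of the HFD libraries.

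Crhr2, the receptor for urocortin 3 (ENSMUSG00000003476, chromosome 6, 55090049 to 55133016, minus strand), was almost confined to delta-like cells, at a low level. Of its 82 UMIs in the hormone classes, 79 lay in delta-like cells, 3 in beta-like cells and 0 in alpha-like and PP-like cells. The delta-like level was 8.58 CPM in WT and 4.9 in HH on SCD, and 6.97 in WT and 7.64 in HH on HFD, from 30, 16, 14 and 19 UMIs. The intervals of all 4 libraries overlapped. No delta-like cell gave more than 2 Crhr2 UMIs. The log2 ratio of HH over WT was -0.81 on SCD (-1.78 to 0.11) and 0.13 on HFD (-0.94 to 1.24), and that of HFD over SCD was -0.3 in WT and 0.64 in HH, each with an interval that included 0. These intervals reached from -1.78 to 1.70, so that a difference within them was not detectable at this depth.

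Ghsr, the ghrelin receptor (ENSMUSG00000051136, chromosome 3, 27371351 to 27378010, plus strand), was led by delta-like cells. It had 25.5 CPM in WT and 26.4 in HH on SCD, and 27.4 in WT and 29.8 in HH on HFD in delta-like cells, which held 304 of its 311 UMIs in the hormone classes. The 4 intervals overlapped, and the log2 ratios lay between 0.05 and 0.18. The widest interval, for HH over WT on HFD, ran from -0.4 to 0.65. In WT HFD a single cell gave 8 of the 55 Ghsr UMIs, and in the other libraries no cell gave more than 3. At 3000 UMIs per cell, 6.25% to 8.47% of delta-like cells had a Ghsr UMI and 0 endothelial-like cells did, where a limit of 3 counts of the total would be a share of 1.48% to 3.41% in a library. Without the reduction the delta-like shares were 21.4% to 23.8%.

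Sstr1, a somatostatin receptor (ENSMUSG00000035431, chromosome 12, 58211772 to 58214444, plus strand), was also led by delta-like cells. There it had 5.15 CPM in WT and 6.43 in HH on SCD, and 5.98 in WT and 6.03 in HH on HFD, from 12 to 21 UMIs. Outside them it had 3 UMIs in beta-like cells, 2 in PP-like cells and 0 in alpha-like cells. The ratios between libraries lay between -0.09 and 0.32 with intervals that included 0.

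Delta-like cells as a class thus carried both a receptor for the beta-cell signal and receptors for their own hormone. Ghsr and Crhr2 were found together in 8 of 332 delta-like cells in WT and 2 of 348 in HH on SCD, and 3 of 160 in WT and 4 of 295 in HH on HFD. The product of the shares would give 6.73, 3.41, 3.33 and 4.06 cells. The counts were close to these numbers in each library. Ghsr and Sstr3 were found together in 19, 28, 23 and 32 delta-like cells in the same order, beside products of 25.0, 26.3, 23.8 and 29.7. The second pair, with the more abundant Sstr3, was thus found in up to 14.4% of the cells of a library. Crhr2 and Sstr3 were found together in 5, 3, 11 and 11 delta-like cells in the same order. The products of their shares were 9.43, 5.0, 8.75 and 8.95, so that the counts lay below them on SCD and above them on HFD.

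Sstr2, the somatostatin receptor known for restraining glucagon release in mice (ENSMUSG00000047904, chromosome 11, 113619342 to 113626028, plus strand), was led by alpha-like cells among the hormone classes. They held 91.2% of its UMIs in the hormone classes. Its alpha-like level was 26.3 CPM in WT and 17.3 in HH on SCD, and 21.5 in WT and 24.6 in HH on HFD, and it did not pass 2.86 CPM in any other hormone class. HH SCD was the lowest library, and its interval (13.9 to 21.1) lay below that of WT SCD (22.03 to 31.1). Beta-like cells had 12 Sstr2 UMIs in all. Outside the hormone classes, the 7 ductal-like cells of HH SCD had 4 Sstr2 UMIs, which gave 56.9 CPM (15.5 to 146), an interval that overlapped the alpha-like one.

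The log2 ratio for Sstr2 in alpha-like cells was -0.61 for HH over WT on SCD (-1.0 to -0.22) and 0.19 on HFD (-0.2 to 0.58). HFD over SCD gave -0.29 in WT (-0.68 to 0.09) and 0.51 in HH (0.11 to 0.91). Of 3 members with enough UMIs in alpha-like cells, 2 passed the fold downwards for HH over WT on SCD, Sstr2 and the low counts of Ucn3, against 4.69% of all genes. In HH, 2 of 3 passed upwards for HFD over SCD, Sstr2 and Sstr3, against 10.3% of all genes. In WT, only Ucn3 passed it, downwards, against 12.2%, and on HFD none of the 3 passed it for HH over WT, against 9.06%. Both of these Ucn3 intervals included 0, at -1.64 to 0.05 for HH over WT on SCD and -1.59 to 0.16 for HFD over SCD in WT. The Sstr2 values lie close to the threshold: with equal weight for each cell they were -0.48 and 0.37, and under 4 further alternatives the second was between 0.4 and 0.48. The whole of Sstr2 overlaps Slc39a11 on the opposite strand, and the strand setting of the counting is not given in the sources used here. Different clusters held most alpha-like cells on the diets, cluster 4 on SCD and cluster 10 on HFD.

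Sstr3, the somatostatin receptor known from the primary cilium (ENSMUSG00000044933, chromosome 15, 78537008 to 78544685, minus strand), was found in all 4 hormone classes and was higher in the HFD libraries. In delta-like cells it had 40.9 CPM in WT and 45.3 in HH on SCD, and 79.7 in WT and 82.5 in HH on HFD. In PP-like cells the levels were 25.9, 20.7, 46.6 and 43.4 CPM in the same order, and in alpha-like cells 33.5, 29.4, 46.7 and 53.99. In these 3 classes the HFD intervals lay above the SCD intervals of the same genotype. Beta-like cells differed less, with 51.9, 46.1, 56.7 and 56.02 CPM.

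The order of the classes for Sstr3 depended on the total to which counts were scaled. With all genes in the total, on SCD beta-like cells had the highest level in both libraries, above delta-like cells by more than the intervals in WT SCD and with overlapping intervals in HH SCD. On HFD, delta-like cells were then highest, with intervals above those of beta-like cells in both libraries. Hormone messages take a larger share of the total in beta-like cells. Without hormone and mitochondrial genes in the total, beta-like cells were highest in all 4 libraries, at 143 CPM in WT and 132 in HH on SCD, and 159 in WT and 161 in HH on HFD. Delta-like cells then had 60.9, 67.9, 115 and 124 CPM in the same order, and their intervals lay below those of beta-like cells in each library. On either scale, alpha-like and PP-like cells did not differ beyond their intervals in any library. The HFD over SCD ratios within a class kept their sign on either scale.

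As log2 ratios of HFD over SCD, Sstr3 differed by 0.96 in WT (0.63 to 1.3) and 0.86 in HH (0.55 to 1.18) in delta-like cells. In PP-like cells the ratios were 0.85 (0.3 to 1.4) and 1.07 (0.55 to 1.6), and in alpha-like cells 0.48 (0.18 to 0.78) and 0.88 (0.59 to 1.17). Beta-like cells gave 0.13 (0.04 to 0.21) and 0.28 (0.21 to 0.36). With finer clustering the delta-like cells parted by diet. A first cluster held 314 WT and 311 HH cells on SCD and 5 and 14 on HFD, and a second held 18 and 37 on SCD and 155 and 280 on HFD. Between the genotypes, HH over WT, the interval for Sstr3 over a whole class included 0 in each case except that of beta-like cells on SCD, at -0.17 (-0.25 to -0.09). With cluster 3 left out, Sstr3 in beta-like cells was 62.5 CPM in HH HFD and the HH over WT ratio on HFD changed from -0.02 to 0.13. Within clusters, HH over WT on HFD was 0.14 in cluster 2 (0.04 to 0.25) and 0.38 in cluster 12 (0.05 to 0.72), both clear of 0. In cluster 2, which all 4 libraries shared, the HFD over SCD ratio was 0.35 in WT (0.01 to 0.71) and 0.75 in HH (0.44 to 1.09), with only 55 and 77 cells in the SCD libraries. In cluster 12 it was -0.02 in WT (-0.40 to 0.35) and 0.50 in HH (0.16 to 0.86).

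The members passing the fold were set beside all genes. In delta-like cells 13.7% of genes passed the fold upwards and 8.64% downwards for HFD over SCD in WT, where 1 of 5 members with enough UMIs (Sstr3) was higher and 1 (Ucn3) lower. In HH, 12.4% of genes passed upwards, with 3 of 5 members: Sstr3, Crhr2 and Ucn3. Between the genotypes, 2 of 5 members passed downwards on SCD, Crhr2 and Ucn3, against 5.67% of genes, and 1 of 4 upwards on HFD, Ucn3, against 4.62%. The Crhr2 interval included 0 in each case, from 19 and 16 UMIs for HFD over SCD and 16 and 30 for HH over WT. The Ucn3 counts in delta-like cells were each within counting error of the number expected from insulin UMIs. PP-like cells had enough UMIs for Sstr3 alone, which passed upwards in WT and HH beside 20.5% and 17.9% of genes. It did not pass the fold in PP-like cells between the genotypes, where 15.5% of genes did on SCD and 17.1% on HFD.

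The share of cells with an Sstr3 UMI followed the levels. At 3000 UMIs per cell, 9.04% of delta-like cells had one in WT SCD (6.18% to 12.6%), 13.5% in HH SCD (10.1% to 17.6%), 22.5% in WT HFD (16.3% to 29.8%) and 22.4% in HH HFD (17.7% to 27.6%). Endothelial-like cells gave at most 0.781%, from 1 of 128 cells. Without the reduction the delta-like shares were 32.5% in WT and 33.3% in HH on SCD, and 62.5% in WT and 47.1% in HH on HFD. Beta-cell RNA carried along with insulin would give 2.3 to 6.31 Sstr3 UMIs in the delta-like cells of a library, where 143 to 205 were observed.

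**Figure D4:**
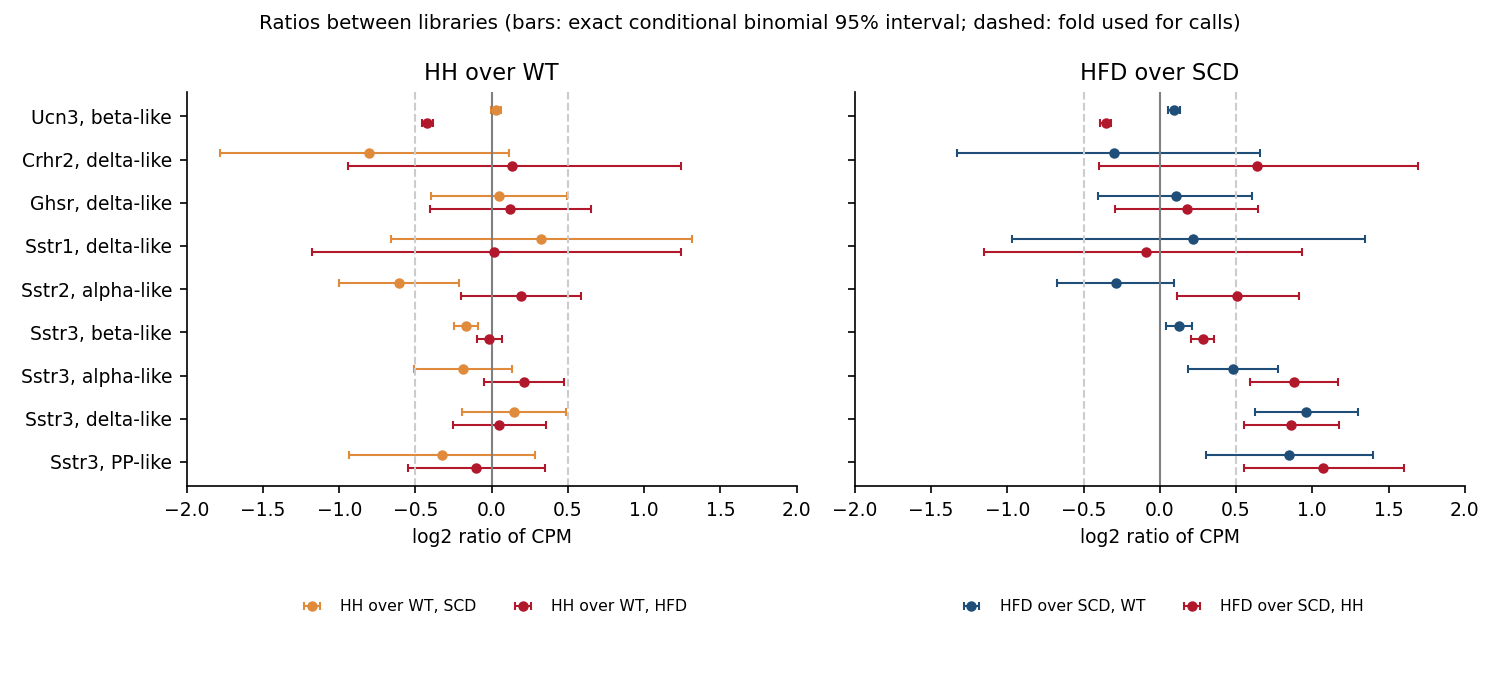
Log2 ratios of CPM for HH over WT in each diet and for HFD over SCD in each genotype, for each gene in the hormone class that leads it and for Sstr3 in all 4 classes, with exact conditional binomial 95% intervals and dashed lines at the fold of 0.5 used for calls. Ucn3 in beta-like cells lies at -0.42 for HH over WT on HFD and at 0.03 on SCD, and Sstr3 lies above 0 for HFD over SCD in every class.

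Other genes of the circuit were read from a list of 32 genes for ligands, receptors and signal transducers. Among ligands, Sst made up nearly the same share of delta-like cells in all 4 libraries, with log2 ratios between -0.02 and 0.01. In beta-like cells, which are not known to make somatostatin, Sst was 77.6 CPM in WT and 77.05 in HH on SCD, and 70.4 in WT and 115 in HH on HFD. The estimated share of free RNA in beta-like cells was 0.962%, 0.944%, 1.01% and 2.04% in the same order. Sst was 1.47 times as high in HH as in WT alpha-like cells on HFD, and 1.52 times as high in PP-like cells. Crh, the corticotropin-releasing hormone, had 0 UMIs in the hormone classes, and Ucn and Ucn2, its other relatives, had at most 1 UMI in a class of any library. Cort, a neuropeptide related to somatostatin, had at most 3.

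Of the other receptors, Sstr4 had 0 UMIs and Sstr5 had 1 UMI in all hormone classes, so that a change in these could not be measured. Crhr1, the second receptor of the CRH family, and Crhbp, which binds its ligands, were beta-cell messages of low level. Crhr1 had 0.923 CPM in WT and 1.29 in HH on SCD, and 1.53 in WT and 0.733 in HH on HFD in beta-like cells, from 49 to 67 UMIs. Its HH over WT ratio on HFD was -1.06 (-1.66 to -0.47). Crhbp had 0.226, 0.329, 0.522 and 0.631 CPM in the same order, a ratio of 0.94 for HFD over SCD in HH (0.1 to 1.84).

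Among transducers, the inhibitory G alpha genes were present in all 4 classes. Gnai2 had 410 to 472 CPM in delta-like and 147 to 207 CPM in beta-like cells, lowest in HH HFD beta-like cells. Gnai3 in beta-like cells was lower on HFD in both genotypes, with ratios of -0.66 and -0.68, at 54.6 CPM in WT and 48.1 in HH on SCD, and 34.5 in WT and 30.005 in HH on HFD. Of the GIRK channel genes, through which these receptors can hyperpolarize cells, Kcnj3 stood at 11.3 to 15.4 CPM in alpha-like cells and at most 0.0614 CPM in beta-like cells. Kcnj6 was present in both, at 13.1 to 15.6 CPM in alpha-like and 2.16 to 2.49 CPM in beta-like cells.

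Adenylyl cyclases, which inhibitory receptors restrain, differed by class. Adcy8 was found in delta-like cells at 4.86 to 8.96 CPM and in other classes at most at 0.665 CPM. Adcy6 in alpha-like cells was 25.3 CPM in WT and 24.8 in HH on SCD, and 36.1 in WT and 36.6 in HH on HFD, higher on HFD in both genotypes by 0.51 (0.17 to 0.86) and 0.56 (0.24 to 0.89). Adcy9 in beta-like cells was higher on HFD by 0.65 in WT (0.51 to 0.78) and by 0.45 in HH (0.33 to 0.57), the second under the fold. In beta-like cells 16 of the 32 genes had enough UMIs for HH over WT on HFD, and 1 was higher (Sst, the gene whose level is set beside free RNA above) and 3 were lower (Crhr1, Mrap2 and Adcy3) by the fold, the interval for Mrap2 including 0, with a median of -0.20 beside -0.15 for all genes. On SCD 1 of 16 was higher, Ghrl, from 39 UMIs in HH SCD and 1 in WT SCD, and 1 was lower, Adcy3, with an interval that included 0. Of all genes in beta-like cells, 13.1% passed in either direction on HFD and 6.31% on SCD. For HFD over SCD, 2 of 15 were higher and 1 lower in WT, beside 15.3% of all genes, and 2 of 17 were higher and 3 lower in HH, beside 20.9%. In alpha-like cells none of 14 passed the fold for HH over WT on SCD, beside 8.35%, and 2 of 15 were higher on HFD, beside 9.06%. For HFD over SCD there, 1 of 15 was higher in WT and 4 of 15 in HH, beside 21.8% and 22.0%, with 0 lower. In delta-like cells HH over WT had 3 of 15 higher on SCD and 2 of 13 lower on HFD, beside 9.88% and 12.3%. HFD over SCD had 3 of 14 higher in WT, beside 22.3%, and 1 of 14 higher and 2 lower in HH, beside 21.4%. In PP-like cells 0 of 12 genes passed for HH over WT on SCD and 1 was higher on HFD, beside 15.5% and 17.1%. For HFD over SCD there, 0 of 12 passed in WT, and 1 was higher and 1 lower in HH, beside 27.2% and 25.0%. Genes named here by their count were chosen after their values were seen.

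Genes most like each member were sought over the 16 sums of 4 hormone classes in 4 libraries, by Pearson's r of log2(CPM + 1) among 9500 genes that reached 10 CPM. The r values describe mainly the split between classes, since the 16 sums come from 4 libraries. For Ucn3 the nearest were Ins2 (0.992), Ins1 (0.99) and Ovol2 (0.989). For Crhr2 they were Clmp, Ppp1r17 and Ghsr (0.994 to 0.995), for Ghsr Ly6h, Ptprz1 and Cacna2d2 (0.998 to 0.999), and for Sstr1 Bmp3, Sox11 and Neurog3 (0.987 to 0.991). The Sstr2 neighbours were Wnk3, Amotl1 and Irx1 (0.953 to 0.979). Sstr3, which no class held alone, had the lowest values, with Pigh, Mrpl12 and Zbtb40 (0.934 to 0.949).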

How the data were processed

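Per the labels, single-cell libraries of mouse islets were aligned with Cell Ranger 6.0 to the mouse genome (mm10), and the authors deposited raw UMI counts per gene and cell for each library. The deposited counts are not normalized, and neither free RNA nor doublets had been removed. Here cells with under 10% mitochondrial UMIs, 3000 to 50000 UMIs and 2000 to 5000 genes were kept, and the top-scoring barcodes by Scrublet were removed at an expected 0.8% per 1000 barcodes. Cells were clustered (scanpy 1.11.5, 3000 variable genes without the members, 30 components, 20 neighbours, Leiden resolution 1) and named from at least 3 markers. Cell names are therefore rebuilt. Counts were summed by class and library and divided by the class total (CPM), with exact Poisson intervals, and log2 ratios had exact conditional binomial intervals. Shares were computed at 3000 UMIs per cell, with Clopper-Pearson intervals. UMIs per library ranged from 68011082 to 104810105, and the precision of each level follows from the UMIs given with it. Levels of 3 counts or fewer in both libraries gave no ratio. The named genes were the members, the 3 genes most like each in pattern, and genes of the pathway list. Members and lists were chosen with earlier results of these data known. Gene positions are from GENCODE M21. The scripts were tested on simulated data. Alternatives changed the filter, doublets, clustering, naming, free RNA, scaling, weighting and depth.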

Additional observations from a re-analysis of the deposited data

Results flagged for a closer look

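The log2 ratio of HFD over SCD for Ucn3 in beta-like cells was 0.094 in WT and -0.36 in HH, with opposite signs in the 2 genotypes. Within shared clusters the HH ratio was -0.08 in cluster 2 (-0.20 to 0.05) and 0.29 in cluster 12 (0.08 to 0.51), where WT gave 0.28 and 0.72. The difference between these ratios was not tested, with 1 library for each group.

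For Ucn3 in delta-like cells, the log2 ratio of HH over WT was -0.86 on SCD and 1.18 on HFD. These rest on 35, 18, 10 and 28 UMIs in WT SCD, HH SCD, WT HFD and HH HFD, and each was within counting error of the number expected from insulin UMIs. In HH HFD, 11 of the 28 UMIs lay in 3 cells, 6 of them in 1 cell, and Gcg in these delta-like cells was 4898 CPM against 613 in WT HFD. The difference between the ratios was not tested.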

How the results depend on the processing

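No paired analysis was possible because each group had 1 library and the replicate number was the same in all of them, so there was neither a block nor a replicate to leave out. No log2 ratio of a member in the class that leads it changed sign among those with an interval clear of 0. For Ucn3 in beta-like cells, median-of-ratios scaling gave -0.27 for HH over WT on HFD, 0.12 on SCD and -0.295 for HFD over SCD in HH. Without hormone and mitochondrial genes in the CPM total, HH over WT on SCD was 0.084. The looser filter gave 0.011 for HFD over SCD in WT. Beta-like cells in the lower part by UMIs of other hormones gave -0.498 for HH over WT on HFD. The alternatives on beta-like clusters were chosen after seeing the data. Without cluster 3, the ratio was -0.25 for HH over WT on HFD and -0.17 for HFD over SCD in HH, and in cluster 2 alone it was -0.19 for HH over WT on HFD. With 1 library per group, the spread between mice was not measured, and depth limits Crhr2 and Sstr1 most, with 12 to 30 UMIs per library in delta-like cells. Over the 16 comparisons of class and library pair, 6.31% to 27.2% of genes passed the fold, against 2.69% to 16.5% with at least 100 UMIs over the pair and 0.702% to 6.72% at a log2 ratio of 1. Levels depended most on the total: 35 of 44 moved beyond their interval without hormone and mitochondrial genes in it, and the share of cells with a UMI moved in all 24 cases without the reduction in depth and in 18 of 24 at 6000 UMIs. Subtracting the free-RNA profile moved 8 of 44 levels and 5 of 43 ratios, all of them of Ucn3 in alpha-like and delta-like cells, where it left at most 4.22 and 3.92 CPM. The delta-like levels left were 0 in HH SCD and 0.332 CPM in WT HFD, so that the ratios there have no firm base.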

Other observations

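Ghrl, the gene for ghrelin, the ligand of the receptor encoded by Ghsr, was nearly confined to single barcodes. Of 4423 Ghrl UMIs over 66 barcodes, 4070 lay in 1 barcode of HH SCD with 38828 UMIs in all, and 288 lay in 1 barcode of WT HFD with 13996 UMIs. Neither barcode was among the cells used. The hormone classes together held 51 Ghrl UMIs, of which 39 lay in the beta-like cells of HH SCD.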
